A study of Mus musculus with 20 samples.

Results

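The translation initiation factor genes were examined in germinal centre B cells sorted from control mice and from mice heterozygous for Myd88 L252P, a change in the adaptor of Toll-like receptors. Members were the gene symbols that start with Eif1 to Eif6, without the eIF2 kinases (Eif2ak) and without the sex-linked pair for eIF2 gamma. This gave 52 of 23382 symbols. The genes Eif2c1 to Eif2c4 are older names of the Argonaute genes Ago1 to Ago4, which act in microRNA silencing and not in initiation, so 48 of the 52 were initiation factors or their regulators.

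Initiation brings the small ribosomal subunit, the initiator tRNA and the capped end of an mRNA together. eIF1, eIF1A, eIF3, eIF5 and the eIF2 complex with its tRNA form the preinitiation complex, and eIF4F (the cap-binding eIF4E, the scaffold eIF4G and the helicase eIF4A) loads it on the mRNA, after which it scans to a start codon and eIF5B joins the large subunit. The 4E-binding proteins hold eIF4E back until mTORC1 phosphorylates them, and kinases that phosphorylate eIF2 alpha block its exchange factor eIF2B. Germinal centre B cells cycle between a dark zone, where centroblasts divide fast, and a light zone, where centrocytes are selected, and Myc, which is known to drive genes of the translation machinery, is switched on in selected light zone cells.

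The 20 libraries formed 4 groups of 5. Control centroblasts and control centrocytes came from mice labelled Cgamma1Cre +/- and wild type for Myd88, and the mutant groups from mice labelled Cgamma1Cre +/- and Myd88L252P +/-, so every group carried 1 copy of the Cre, which is driven from an immunoglobulin heavy chain locus and acts in germinal centre B cells. The sort gate was B220+FAS+GL7+, with CXCR4+CD86- for centroblasts and CXCR4-CD86+ for centrocytes. The sources used here do not give age, sex or whether a library is 1 mouse or a pool. The labels do not say that replicates are separate mice either, so p-values measure the spread between these libraries only. Values are TPM, an abundance corrected for transcript length and scaled to 1 total per library, and depth is unknown. Between 12719 and 14092 genes were above 0 in a library. The sort genes matched the labels: Cxcr4 was lower (log2 fold change -0.92 ± 0.14 SE in controls, limma adjusted p = 5.99e-05) and Cd86 higher (1.17 ± 0.14, limma adjusted p = 3.15e-06) in control centrocytes. The summed TPM of 5 B cell markers was 8778 to 11883 over the 20 libraries.

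Mutant centroblasts 4 and 5 stood apart in composition. Cytosolic ribosomal protein genes made up 12.5% and 17.1% of their TPM against 7.37% to 10.01% in the other 18 libraries, so zone differences in mutants and genotype differences in centroblasts are also given without them where that ended a call or moved a called value by over 1.5 times. Markers of other cells also moved with the groups. The summed TPM of 9 macrophage markers was 44.6 to 63.9 in control centroblasts, 40.3 to 82.4 in mutant centroblasts, 107 to 226 in control centrocytes and 83.1 to 207 in mutant centrocytes, and none of the 9 was at 0 in all libraries. Of the 8 tested, 7 were higher in centrocytes in each genotype. Of 7 erythroid markers, Hbb-b2, Hba-a1 and Hba-a2 were listed at 0 throughout, and the sum was 22.8 to 270.3 in control and 322 to 806 in mutant centroblasts, 41.5 to 272 in control and 232 to 577 in mutant centrocytes. Of the 3 tested, Beta-s and Alas2 were higher in mutant centroblasts. The sum of 6 T cell markers was 99.9 to 229.5 TPM in control centroblasts, 163 to 246 in mutant centroblasts, 177 to 293 in control centrocytes and 202 to 246 in mutant centrocytes. Lck held most of it, Cd4 and Cd8a were under 1 TPM in every library, and the 2 tested, Lck and Cd3g, were higher in control centrocytes and passed in no other comparison. The sum of 5 plasma cell markers was 1402 to 1788 and 1516 to 1864 TPM in control and mutant centroblasts and 822 to 1049.99 and 746 to 1279.6 in control and mutant centrocytes, with Igj lower and Prdm1 and Irf4 higher in centrocytes of both genotypes. Of the sort genes, Cxcr4 was also called lower in mutants than in controls in both zones. Without mutant centroblasts 4 and 5 its genotype effects differed between the zones (-0.59, limma adjusted p = 0.0282). In that fit Cd86 was called lower in mutant centroblasts (-0.56, limma adjusted p = 0.0464). The part of these markers, of the sort genes and of the ribosomal share in the differences below was not tested. In bulk libraries fewer cells of a type and less RNA per cell cannot be told apart.

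Of the 52 members, 50 passed the filter of 1 TPM or more in 5 or more libraries. Eif4e1b, which encodes an egg-enriched relative of eIF4E, was 0 in 18 libraries, and Eif3j, a loosely bound eIF3 subunit, was listed at 0 in all 20. Mouse has a near-identical second copy of Eif3j, and the part of reads shared between the copies in this 0 was not tested.

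Promoters are shown for 4 of the members that carry the letters CACGTG, the E-box bound by Myc and related factors, and whose RNA differed between the zones. Eif4a1 was higher and Eif1b lower in centrocytes of both genotypes, while Eif4g1 was higher and Eif3k lower by call in mutants only. Each is the stretch of 250 bases before the start in RefSeq (GRCm38.p6), 5′ to 3′ on the gene's strand, with CACGTG in capitals. The windows are chr11:69672424-69672673 (minus strand) for Eif4a1, chr16:20672477-20672726 (plus strand) for Eif4g1, chr9:120492356-120492605 (plus strand) for Eif1b and chr7:28981889-28982138 (minus strand) for Eif3k.
Eif4a1: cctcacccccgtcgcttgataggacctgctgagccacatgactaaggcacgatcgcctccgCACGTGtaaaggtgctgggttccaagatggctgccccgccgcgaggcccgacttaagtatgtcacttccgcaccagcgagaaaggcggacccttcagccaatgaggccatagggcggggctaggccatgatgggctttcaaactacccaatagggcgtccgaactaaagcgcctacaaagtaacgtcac
Eif4g1: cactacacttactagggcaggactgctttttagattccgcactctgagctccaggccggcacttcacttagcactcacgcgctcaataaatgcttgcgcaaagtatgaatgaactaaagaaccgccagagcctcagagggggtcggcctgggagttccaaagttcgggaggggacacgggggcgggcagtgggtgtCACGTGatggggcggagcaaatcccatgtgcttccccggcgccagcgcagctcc
Eif1b: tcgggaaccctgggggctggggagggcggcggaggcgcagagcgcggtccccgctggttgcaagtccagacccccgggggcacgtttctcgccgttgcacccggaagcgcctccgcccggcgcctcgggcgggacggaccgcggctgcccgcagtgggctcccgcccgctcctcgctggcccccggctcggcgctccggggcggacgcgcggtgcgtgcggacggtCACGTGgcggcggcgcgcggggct
Eif3k: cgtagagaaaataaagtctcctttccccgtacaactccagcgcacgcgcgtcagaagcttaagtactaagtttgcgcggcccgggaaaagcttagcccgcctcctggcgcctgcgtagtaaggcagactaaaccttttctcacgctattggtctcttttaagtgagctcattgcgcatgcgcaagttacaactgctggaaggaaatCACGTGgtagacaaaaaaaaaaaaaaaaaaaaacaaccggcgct
The E-box began 189 bases before the RefSeq start used in Eif4a1, 54 in Eif4g1, 24 in Eif1b and 44 in Eif3k. For Eif4g1 and Eif1b that start is downstream of the first start in GENCODE M21 (chr16:20668313 and chr9:120492232). Their windows and E-boxes therefore lie within the annotated gene and not before it. CACGTG reads the same on both strands. A promoter was matched for 40 members, and 7 of these (17.5%) held it, against 6.05% of all 27025 promoters and 8.76% of those of 8150 tested genes. The other 3 were Eif3f, called lower in mutants only, Eif4h, called lower in controls only, and Eif5a2, called in neither genotype. Among members with a promoter, 1 of 7 that were higher in centrocytes in both genotypes (Eif4a1) and 1 of 7 that were lower in both (Eif1b) held an E-box. The letters CCGGAAG, the core bound by ETS factors, searched on both strands, were in 27.5% of member promoters and 15.3% of those of tested genes, in none of the 7 higher and 2 of the 7 lower members. These matches are descriptions of letters and not of binding.

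Within cells the factors differed widely in level. On the TPM scale, which is per length, the highest means over the 20 libraries were those of Eif3h (1222 TPM), Eif5a (1175 TPM) and Eif3k (1151 TPM), and the lowest tested were those of Eif2c4 (3.66 TPM) and Eif2c3 (3.94 TPM). Eif4e, the cap-binding protein, had a mean of 86.7 TPM and its scaffold Eif4g1 207.8 TPM. The summed TPM of all 52 members was 14322 ± 262 (SD, n = 5) in control centroblasts, 14816 ± 772 in mutant centroblasts (14264 ± 217 in libraries 1 to 3), 13330 ± 376 in control centrocytes and 13471 ± 217 in mutant centrocytes. Centroblast sums lay between 13911 and 15683 and centrocyte sums between 12958 and 13809, with no overlap. Subunits of eIF3 made up most of that gap, with 7235 ± 277 in control centroblasts and 6439 ± 237 in control centrocytes (SD, n = 5).

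The first comparison asked how the factors differ between the zones. In control centrocytes against control centroblasts 20 of 50 members differed, 9 higher and 11 lower (limma, Benjamini-Hochberg adjusted p under 0.05 over 11386 genes), where 30.7% of all tested genes did, 21.2% higher and 9.48% lower. The median log2 fold change of the members was -0.11 and that of all tested genes 0.14. In mutants 31 of 50 differed, 17 higher and 14 lower, against 61.5%, 48.8% and 12.6% of all genes, with medians of 0.02 and 0.34 (-0.05 and 0.17 without mutant centroblasts 4 and 5). There were 9 higher in both genotypes (9 of 9 and 9 of 17), namely Eif1a, Eif5, Eif3a, Eif4g3, Eif4a1, Eif4a2, Eif4ebp3, Eif5b and Eif2c1. There were 9 lower in both (9 of 11 and 9 of 14), namely Eif1b, Eif1ax, Eif2a, Eif2d, Eif2b2, Eif2b5, Eif3h, Eif3i and Eif4a3.

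Scaling and libraries bear on these counts. When libraries were scaled so that the typical gene did not differ (median-of-ratios), which took the median of all genes in mutants from 0.34 to 0.02, 7 members were higher and 17 lower in controls and 10 and 28 in mutants, against 18% and 17.6% of all genes in controls and 29.7% and 28.8% in mutants. Without mutant centroblasts 4 and 5 the counts were 14 higher and 19 lower in controls, whose own libraries were the same but share the pooled spread, and 14 and 13 in mutants, where 24 of the 31 calls remained and those of Eif2a, Eif2b5, Eif2c3, Eif3f, Eif3m, Eif4ebp2 and Eif4enif1 were lost. All genes then stood at 33.3% and 14.3% in controls and 35.8% and 14.9% in mutants. In controls the count of 20 fell to 12 without control centroblasts 1 (25.2% of all genes), 11 without control centroblasts 3 (25.5%), 13 without control centroblasts 5 (24.7%), and 11 without control centrocytes 2 (23.9%) or 3 (23.2%). A set of 7 members (Eif5b, Eif4g3, Eif2c1, Eif4a2, Eif4ebp3, Eif1a and Eif3a) were higher and 5 (Eif2d, Eif1b, Eif1ax, Eif4a3 and Eif2b2) lower in both genotypes with either scaling and with or without mutant centroblasts 4 and 5. Among them, the calls in controls of Eif2c1, Eif4g3, Eif4ebp3, Eif4a3 and Eif1ax were lost when some single libraries were left out.

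**Figure D1:**
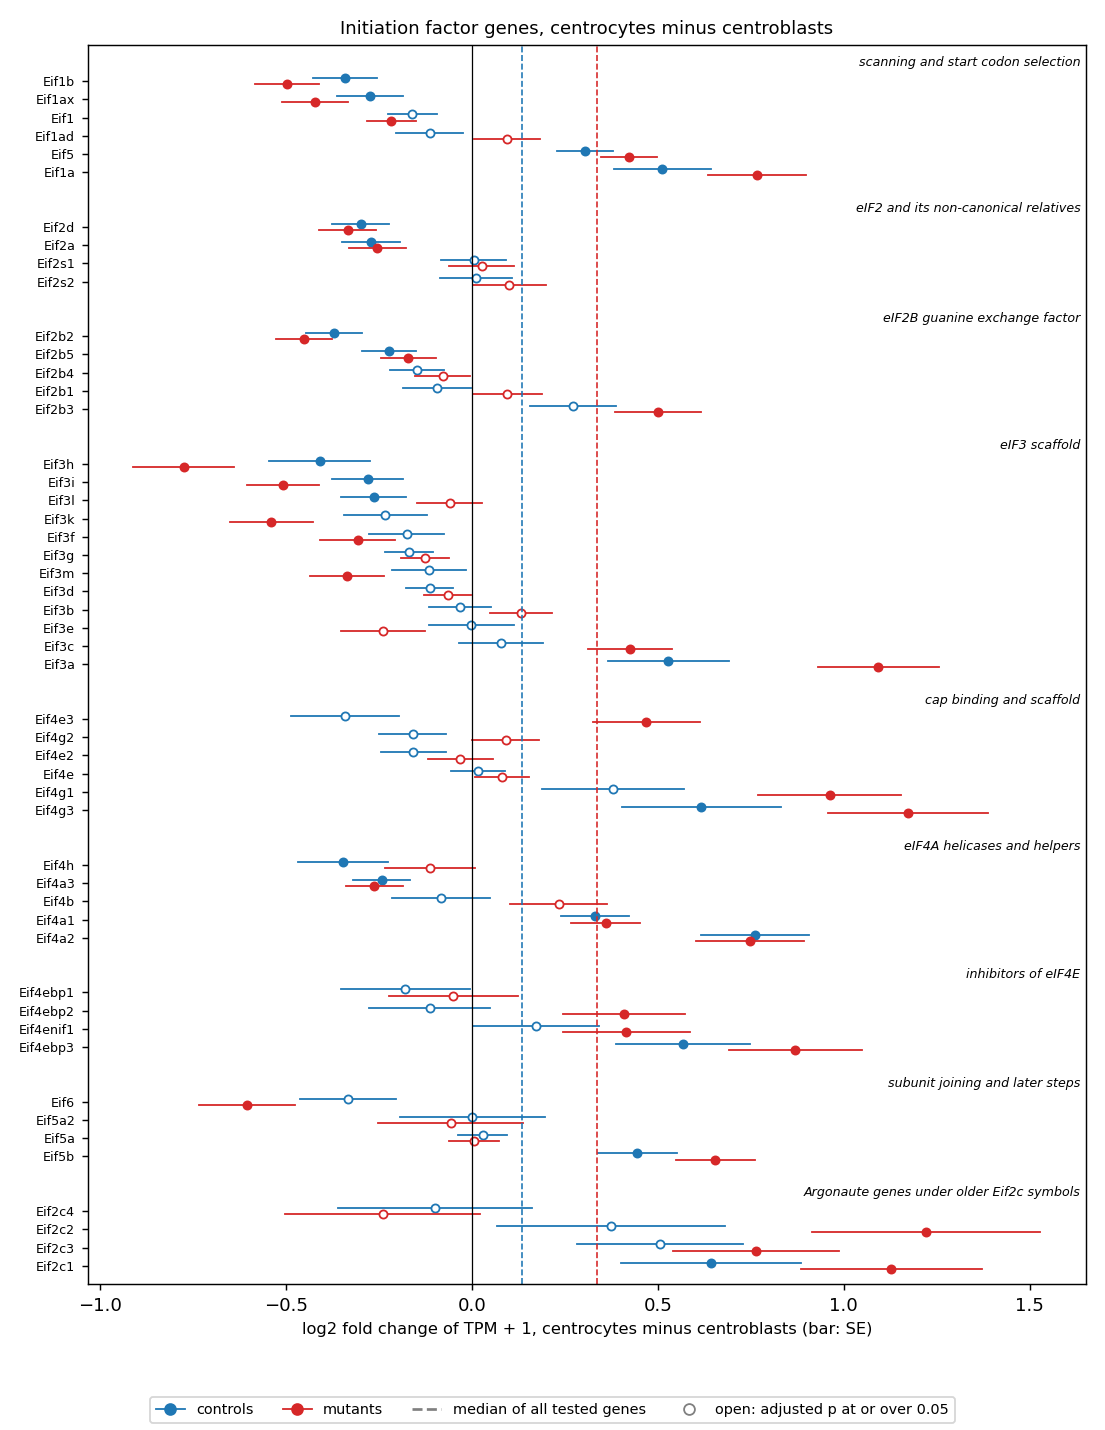
Log2 fold change of TPM + 1 between centrocytes and centroblasts for the 50 tested members, grouped by role, in controls (blue) and mutants (red), with the SE as bars and the median of all tested genes as dashed lines. Filled points passed an adjusted p of 0.05, and members to the left of the dashed lines at 0.14 and 0.34 lay below the typical gene.

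Among the factors of scanning and start codon choice, the paralogs Eif1a and Eif1ax went opposite ways, while Eif1 and Eif1b were both called lower in mutant centrocytes. Eif1a (chromosome 18:46597701-46616456), one of the genes for eIF1A, which holds the scanning complex open, was 64.9, 79.7, 57.4, 47.5 and 58.1 TPM in control centroblasts and 85.9, 79.8, 88.1, 94.997 and 86.5 in control centrocytes. In mutants it was 66.9, 65.3, 70.0, 48.1 and 43.0 in centroblasts and 104, 108, 91.1, 96.5 and 95.7 in centrocytes. No centroblast library reached a centrocyte library of its genotype, and the gene rose by 0.51 ± 0.13 in controls (log2 ± SE; limma adjusted p = 0.00529) and 0.77 ± 0.13 in mutants (limma adjusted p = 5.53e-05; 0.54 without mutant centroblasts 4 and 5). The X-linked Eif1ax, whose product is nearly the same protein, fell by 0.27 ± 0.09 in controls (limma adjusted p = 0.0225) and 0.42 ± 0.09 in mutants (limma adjusted p = 0.000405), from means of 417 and 464 TPM to 345 and 346. Its call in controls was lost without control centroblasts 1 or control centrocytes 2 or 3 (limma adjusted p up to 0.0781). The sources used here do not say how the authors' counting divided reads between near-identical copies, so the split between these genes is uncertain.

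Eif1b (chr9:120492232-120495330), a close relative of the start codon gatekeeper eIF1, was 186, 168, 185, 159 and 176 TPM in control centroblasts and 164, 128, 126, 138 and 135 in control centrocytes, where 1 centrocyte library lay within the centroblast range. In mutants the values were 157, 169, 184, 208 and 178 against 133, 117, 122, 132 and 128, with no overlap. Eif1b fell by 0.34 ± 0.09 in controls and by 0.50 ± 0.09 in mutants (limma adjusted p = 0.00473 and 6.17e-05). Eif1 itself averaged 414 ± 30.8 TPM in control centroblasts and 370.2 ± 5.63 in control centrocytes (SD, n = 5), with a log2 fold change of -0.16 ± 0.07 (limma adjusted p = 0.0723), and it fell by 0.22 ± 0.07 in mutants (limma adjusted p = 0.00816). Eif5, which makes eIF2 hydrolyse its GTP when the start codon is found, was 278, 319, 244, 234 and 239 TPM in control centroblasts and 318, 329, 318, 331 and 316 in control centrocytes. Apart from control centroblasts 2, all centrocyte values were above all centroblast values, and the gene rose by 0.30 ± 0.08 (limma adjusted p = 0.00419) in controls and 0.42 ± 0.08 in mutants (limma adjusted p = 8.69e-05). Relative to the typical gene that difference was 0.16 in controls (limma adjusted p = 0.23) and 0.07 in mutants (limma adjusted p = 0.599, both with median-of-ratios scaling).

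The eIF2 complex and its relatives showed no member that was higher in centrocytes. Eif2s1, eIF2 alpha, the subunit that stress kinases phosphorylate, averaged 165 ± 23.7, 174 ± 6.42, 164 ± 12.0 and 177 ± 13.4 TPM in control and mutant centroblasts and control and mutant centrocytes (SD, n = 5). Its zone difference of 0.01 ± 0.09 had a 95% interval from -0.18 to 0.19 in controls. In this group Eif2d and Eif2a, whose products can bring tRNA to the ribosome without eIF2, were both lower. Eif2d was 103, 99.0, 119, 115 and 104 TPM in control centroblasts and 89.2, 84.4, 85.0, 95.2 and 84.3 in control centrocytes, without overlap, and 103, 106, 94.3, 101 and 89.1 against 70.4, 79.6, 77.8, 77.8 and 84.7 in mutants, again without overlap. It fell by 0.30 ± 0.08 and 0.33 ± 0.08 (limma adjusted p = 0.00576 and 0.00096). Eif2a fell by 0.27 ± 0.08 in controls and 0.25 ± 0.08 in mutants (limma adjusted p = 0.0111 and 0.00787), and the second call was lost without mutant centroblasts 4 and 5 (limma adjusted p = 0.0526). Eif2d and Eif2a overlap Rassf5 and Serp1 on the other strand, and the sources used here do not say whether counting used the strand.

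Of the 5 subunits of eIF2B, which reloads eIF2 with GTP, 2 were lower in both genotypes. Eif2b2 (chr12:85219481-85226628), the beta subunit, was 145, 154, 153, 163 and 143 TPM in control centroblasts and 123, 119, 106, 120.3 and 117 in control centrocytes. Mutant values were 142, 145, 136, 167 and 173 against 109, 109, 115, 107 and 114. The zones did not overlap in either genotype, and Eif2b2 fell by 0.37 ± 0.08 and 0.45 ± 0.08 (limma adjusted p = 0.000804 and 4.18e-05). Eif2b5, the catalytic epsilon subunit, had smaller differences of -0.22 and -0.17. The call in controls was lost when any of 6 single libraries was left out (limma adjusted p up to 0.075), and the one in mutants (limma adjusted p = 0.0483) when any of 17 was (up to 0.106). Eif2b3 was the one subunit that was higher, by 0.50 ± 0.12 in mutants (limma adjusted p = 0.000917), with 0.27 ± 0.12 in controls (limma adjusted p = 0.0772). The difference in mutants was 0.45 without mutant centroblasts 4 and 5, and 0.16 with median-of-ratios scaling, where the call was lost (limma adjusted p = 0.216).

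Among the 12 tested subunits of eIF3, the largest initiation factor, the scaffold Eif3a and several other subunits differed in direction. Eif3a (chr19:60761117-60790658), the core scaffold, was 206, 314, 202, 235 and 209 TPM in control centroblasts and 306, 349, 351, 324 and 333 in control centrocytes. Mutant values were 256, 205, 200.3, 139 and 110.1 against 388, 404, 396, 347 and 336. Apart from control centroblasts 2, every centrocyte library was above every centroblast library of its genotype. Eif3a rose by 0.53 ± 0.16 in controls (limma adjusted p = 0.0173) and 1.09 ± 0.16 in mutants (limma adjusted p = 1.28e-05), and by 0.76 in mutants without mutant centroblasts 4 and 5, its 2 lowest libraries.

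Eif3h (chr15:51786558-51865523), another subunit, was 1452, 1175, 1441, 1232 and 1394 TPM in control centroblasts and 1099, 966, 937, 1017 and 1010.2 in control centrocytes. In mutants it was 1189.9, 1365, 1293, 2005 and 2265 against 953, 823, 823, 971 and 1040.3. The zones did not overlap in either genotype, and mutant centroblasts 4 and 5 were the highest of all 20 libraries. Eif3h fell by 0.41 ± 0.14 in controls and 0.77 ± 0.14 in mutants (limma adjusted p = 0.0262 and 7.40e-05), the latter by 0.48 without those 2 libraries. In controls the call was lost without control centroblasts 1, 3 or 5 or control centrocytes 2 or 3 (limma adjusted p up to 0.0635), and with median-of-ratios scaling (limma adjusted p = 0.0523).

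Eif3i also fell in both genotypes, by 0.28 and 0.51 (0.36 in mutants without mutant centroblasts 4 and 5). Its call in controls was lost without any of 6 single libraries (limma adjusted p up to 0.0744) and with median-of-ratios scaling (limma adjusted p = 0.0582). Eif3k, a small subunit, averaged 1163 ± 64.9 TPM in control centroblasts and 989.8 ± 38.3 in control centrocytes (SD, n = 5), with a difference of -0.23 ± 0.11 (limma adjusted p = 0.114). It fell by 0.54 ± 0.11 in mutants (limma adjusted p = 0.000342) and by 0.31 without mutant centroblasts 4 and 5. Eif3l was lower in controls, a call lost without any of 5 single libraries (limma adjusted p up to 0.0608). Eif3f and Eif3m were lower and Eif3c was higher in mutants (0.42, and 0.20 without those 2 libraries; lost with median-of-ratios scaling, 0.07, limma adjusted p = 0.435), and Eif3b, Eif3d, Eif3e and Eif3g passed in neither.

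**Figure D2:**
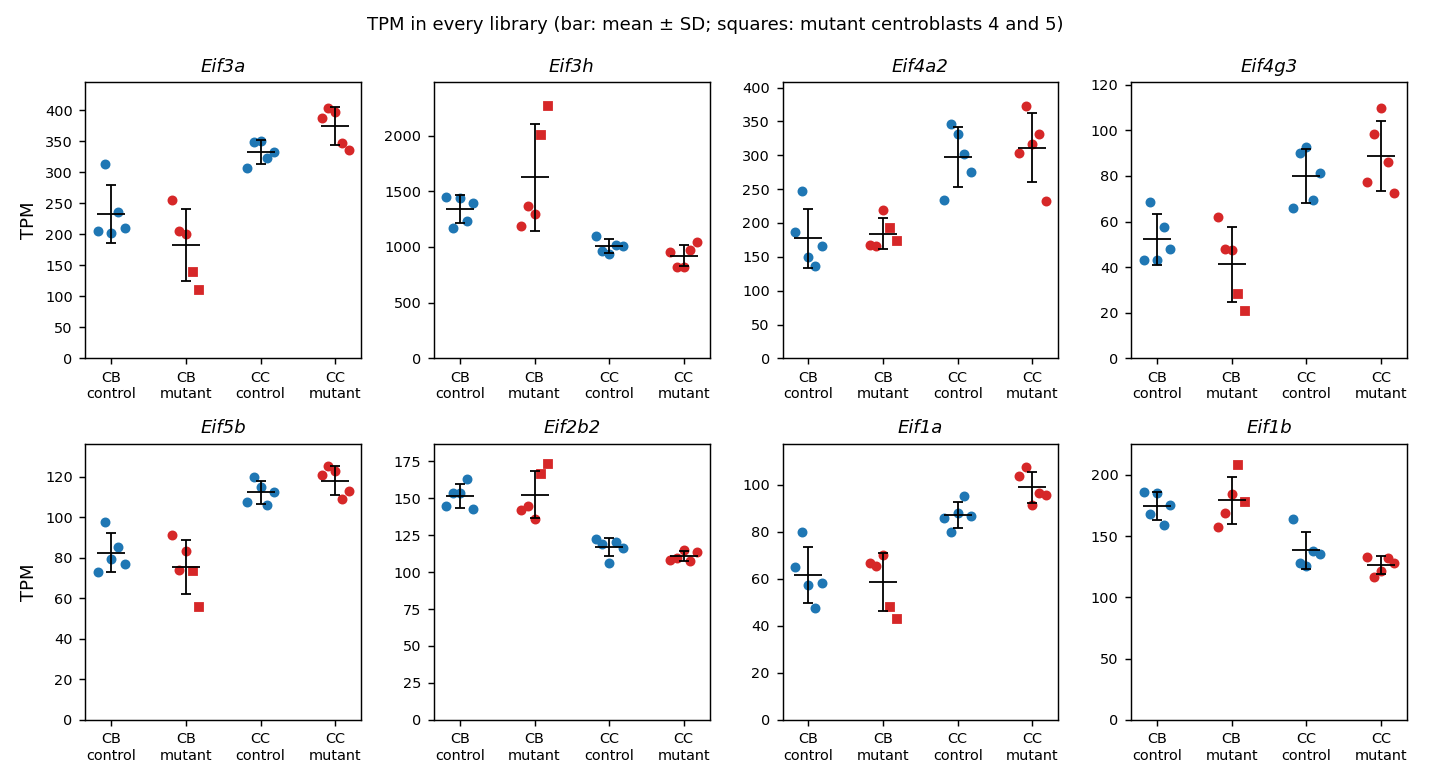
TPM of 8 members in every library, with the mean and SD of each group of 5, from control (blue) and mutant (red) centroblasts (CB) and centrocytes (CC). Squares mark mutant centroblasts 4 and 5, which were the lowest for Eif3a (139 and 110.1 TPM) and the highest for Eif3h (2005 and 2265 TPM).

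In the cap-binding complex the zones differed in the scaffold and the helicase, and on the TPM scale not detectably in the cap-binding protein. Eif4e was 90.7, 91.2, 87.9, 76.6 and 83.0 TPM in control centroblasts and 89.0, 84.6, 81.6, 93.2 and 86.2 in control centrocytes. Over the mutant libraries of both zones it ran from 78.8 to 95.3 TPM. Its zone difference was 0.02 ± 0.07 in controls and 0.08 ± 0.07 in mutants, with 95% intervals of -0.13 to 0.17 and -0.07 to 0.23. With median-of-ratios scaling Eif4e was called lower in mutant centrocytes (-0.27, limma adjusted p = 0.0247), and it was not called with that scaling once mutant centroblasts 4 and 5 were left out (-0.11, limma adjusted p = 0.309). Eif4g3 (chr4:137993022-138208508), a second eIF4G scaffold, was 43.2, 68.8, 43.0, 57.8 and 48.2 TPM in control centroblasts and 66.0, 90.2, 92.6, 69.5 and 81.5 in control centrocytes, where 1 centroblast library overlapped. Mutant values were 62.0, 47.8, 47.4, 28.2 and 20.9 against 77.5, 98.4, 109.8, 86.3 and 72.4, with no overlap. It rose by 0.62 ± 0.21 in controls (limma adjusted p = 0.0327) and 1.17 ± 0.21 in mutants (limma adjusted p = 0.000111), or 0.75 without mutant centroblasts 4 and 5. Its call in controls was lost without control centroblasts 1, 3 or 5 or control centrocytes 2, 3 or 5 (limma adjusted p up to 0.0831).

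Eif4g1 (chr16:20668313-20692884), the main scaffold, averaged 176 ± 28.3 TPM in control centroblasts and 227 ± 8.69 in control centrocytes (SD, n = 5), a difference of 0.38 ± 0.19 (limma adjusted p = 0.135). In mutants it was 230.5, 173, 148, 129 and 73.5 in centroblasts and 249.7, 299, 341, 252.4 and 248.7 in centrocytes, without overlap, and rose by 0.96 ± 0.19 (limma adjusted p = 0.000255), or 0.61 without mutant centroblasts 4 and 5. Eif4g2, a relative of the scaffold that does not bind eIF4E, was 602 ± 28.9 TPM in control centroblasts and 539 ± 16.1 in control centrocytes, and its difference of -0.16 ± 0.09 did not pass (limma adjusted p = 0.185). Relative to the typical gene Eif4g2 fell by 0.27 in mutants (limma adjusted p = 0.00158 with median-of-ratios scaling). On the TPM scale its difference in mutants was a rise of 0.09 ± 0.09, which did not pass (limma adjusted p = 0.389).

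Both cytoplasmic eIF4A helicases, which unwind the 5′ leader, were higher in centrocytes. Eif4a2 (chr16:23107444-23114136) was 187, 247, 149.95, 137 and 166 TPM in control centroblasts and 234, 346, 331, 302 and 275 in control centrocytes. In mutants it was 167, 167, 219.8, 193 and 173 against 303, 373, 316, 331 and 233. One control centroblast library overlapped and no mutant library did. Eif4a2 rose by 0.76 ± 0.15 in controls and 0.75 ± 0.15 in mutants (limma adjusted p = 0.000458 and 0.000197), and by 0.62 and 0.39 relative to the typical gene. It overlaps Rfc4 on the other strand. Eif4a1, which has processed copies elsewhere in the genome and is therefore uncertain, averaged 168 ± 12.9 and 211 ± 9.53 TPM in control centroblasts and centrocytes and 177 ± 25.7 and 226 ± 17.2 in mutants (SD, n = 5). It rose by 0.33 ± 0.09 and 0.36 ± 0.09 (limma adjusted p = 0.00911 and 0.00212). In mutants this was the middle of all tested genes (percentile 51.7), and with median-of-ratios scaling the difference was 0.19 in controls (limma adjusted p = 0.0852) and 0.00 in mutants (limma adjusted p = 0.969). Eif4a3, the relative that sits in the exon junction complex, fell by 0.24 ± 0.08 and 0.26 ± 0.08 (limma adjusted p = 0.0206 and 0.00586), and the call in controls was lost without control centroblasts 3 or 4 or control centrocytes 2 or 3. Eif4h, a helper of the helicase, was lower in controls only by call, which was lost without any of 8 single libraries (limma adjusted p up to 0.0804), and the difference between the genotypes for it did not pass.

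Of the eIF4E inhibitors, Eif4ebp3 was 24.0, 29.3, 21.6, 24.0 and 27.7 TPM in control centroblasts and 30.6, 38.9, 40.2, 36.4 and 44.1 in control centrocytes, without overlap. Mutant values were 27.5, 17.6, 33.7, 16.5 and 13.9 against 35.0, 41.1, 46.4, 40.1 and 32.2, where 1 centroblast library overlapped. It rose by 0.57 ± 0.18 and 0.87 ± 0.18 (limma adjusted p = 0.0199 and 0.000347; 0.59 in mutants without mutant centroblasts 4 and 5, the lowest of that group), and the call in controls was lost without control centroblasts 3 or control centrocytes 5 (limma adjusted p up to 0.0538). It shares its strand and locus with a second annotated gene, so its reads may not be its own. Eif4ebp1, the best known mTORC1 target among them, ranged from 23.5 to 56.5 TPM over the 20 libraries and passed in no comparison (zone differences -0.18 ± 0.17 and -0.05 ± 0.17). The mean of Eif4ebp2 was 157 ± 24.0 TPM in control centroblasts, 115 ± 41.3 in mutant centroblasts, 144 ± 6.51 in control centrocytes and 147 ± 16.1 in mutant centrocytes (SD, n = 5). Its rise of 0.41 ± 0.16 in mutants (limma adjusted p = 0.0345) was lost without mutant centroblasts 4 and 5 (0.13, limma adjusted p = 0.432), as was that of Eif4enif1, whose product carries eIF4E to the nucleus and to processing bodies (0.03, limma adjusted p = 0.742).

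At subunit joining, Eif5b (chr1:37998010-38055579), the GTPase of this step, was 73.0, 97.8, 79.6, 85.3 and 76.97 TPM in control centroblasts and 107, 120.1, 115, 106 and 113 in control centrocytes. In mutants it was 91.3, 74.0, 83.5, 73.4 and 55.7 against 121, 125, 123, 109 and 113. Neither genotype showed overlap, and Eif5b rose by 0.45 ± 0.11 and 0.65 ± 0.11 (limma adjusted p = 0.00304 and 3.11e-05; 0.51 in mutants without mutant centroblasts 4 and 5). It overlaps Rev1 on the other strand. Eif6, which keeps the large subunit from joining too early, went the other way, with means of 225 ± 21.3 and 178 ± 13.2 TPM in control centroblasts and centrocytes (difference -0.33 ± 0.13, limma adjusted p = 0.055). It fell by 0.60 ± 0.13 in mutants (limma adjusted p = 0.000492) and by 0.34 without mutant centroblasts 4 and 5, which held 323 and 433 TPM against 223 to 250.3 in the other 3. Eif5a, whose hypusine-bearing product eases elongation at difficult peptide bonds, lay between 995 and 1282 TPM, with zone differences of 0.03 ± 0.07 and 0.01 ± 0.07.

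The 4 Argonaute genes under the older symbols had a median zone difference of 0.44 in controls and 0.95 in mutants (0.52 without mutant centroblasts 4 and 5, where Eif2c4 was called lower, -0.77, limma adjusted p = 0.00343). Eif2c1 (Ago1) was 18.9, 27.6, 24.7, 23.6 and 20.2 TPM in control centroblasts and 30.1, 37.3, 42.6, 35.2 and 36.6 in control centrocytes, without overlap. It rose by 0.64 ± 0.24 in controls (limma adjusted p = 0.0482, up to 0.112 when 1 of 14 libraries was left out) and 1.13 ± 0.24 in mutants (limma adjusted p = 0.000503), or 0.58 without mutant centroblasts 4 and 5. Eif2c2 (Ago2), the Argonaute that can cut its target, rose by 1.22 ± 0.31 in mutants (limma adjusted p = 0.00188) and differed by 0.37 ± 0.31 in controls (limma adjusted p = 0.369). Its mutant centroblast values were 31.1, 19.9, 16.8, 7.78 and 4.43 TPM, lowest in libraries 4 and 5, without which it rose by 0.53. Eif2c2 overlaps Chrac1 on the other strand. Without the 4 Argonaute genes the counts were 8 higher and 11 lower in controls and 14 and 14 in mutants.

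Transcript length moved with the zone difference. Over the 50 tested members, Spearman's rho between the log2 fold change and the longest coding transcript (GENCODE M21) was 0.49 in controls and 0.61 in mutants, beside 0.33 and 0.49 over 10633 tested genes. The value in mutants was 0.43 without mutant centroblasts 4 and 5, beside 0.37 over all genes. These are descriptions across genes that share the same libraries and their RNA quality. The 15 members under 1920 bases, the lower quartile of all genes, had median differences of -0.17 in controls and -0.26 in mutants, and the 13 over 4490 bases, the upper quartile, 0.37 and 0.65. Over all genes the same ranges of length had medians of -0.04 and 0.30 in controls and -0.05 and 0.68 in mutants. Eif3h (1295 bases), Eif3k (909) and Eif6 (1500) are short, and Eif3a (5125), Eif4g1 (5638) and Eif4g3 (8134) long. Eif4ebp3 (744 bases) rose and Eif1ax (5172 bases) fell. The part of transcript length in these results was not tested.

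**Figure D3:**
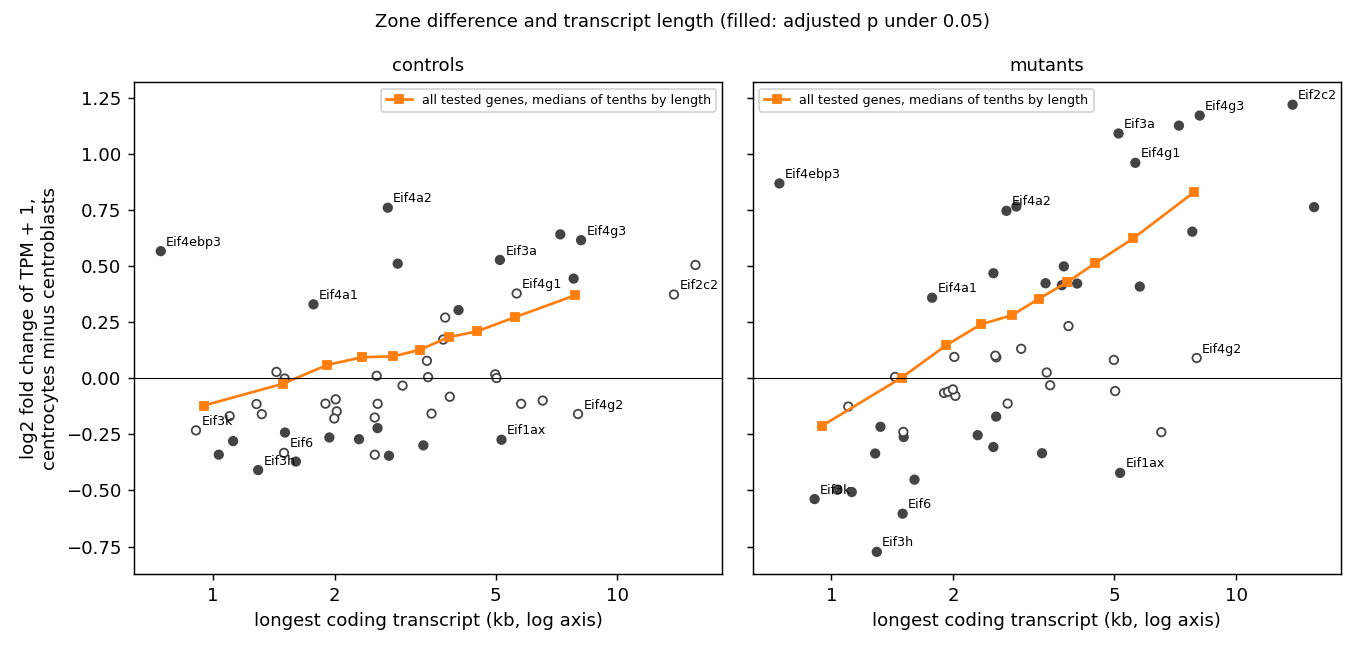
Zone difference of the 50 tested members (log2 fold change of TPM + 1, centrocytes minus centroblasts) against the longest coding transcript on a log axis, in controls and mutants, with medians of all tested genes in 10 bins by length (orange). Longer transcripts lay higher among members (rho 0.49 and 0.61) as among all genes (0.33 and 0.49), with Eif4ebp3 and Eif1ax off the trend.

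The second comparison asked what the L252P allele did to these genes. By limma no member passed in centroblasts, where 4.29% of all tested genes did, and none in centrocytes, where 1.2% did. At an unadjusted p under 0.05 there were 13 and 4 members, against 30.3% and 9.61% of all genes. The median of the members was -0.05 against -0.16 for all genes in centroblasts, and 0.04 against 0.02 in centrocytes. The 95% interval lay within 0.5 log2 units of 0 for 31 of 50 members in centroblasts and 40 in centrocytes, and within 1 unit for 49 (all but Eif2c2) and 50. Length moved with this difference too. In centroblasts rho between the log2 fold change and transcript length was -0.50 over members and -0.52 over all genes, and 0.00 and -0.19 without mutant centroblasts 4 and 5, while in centrocytes it was 0.31 and 0.08. In centrocytes the 95% interval bounded Eif4e to -0.11 to 0.19, Eif5a to -0.04 to 0.23 and Eif2s1 to -0.07 to 0.29.

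The result in centroblasts turned on the libraries of that group. Without mutant centroblasts 1 there were 14 calls (3 higher and 11 lower; 27.2% of all genes), 2 without mutant centroblasts 2 (7.28%) and 1 without mutant centroblasts 3 (4.87%). Without mutant centroblasts 4 and 5 (3.57% of all genes called) the one call was Eif2c4 (Ago4), higher by 0.82 (limma adjusted p = 0.0257), with 6.27, 7.27 and 6.13 TPM in mutant centroblasts 1 to 3, 2.12 and 1.89 in 4 and 5, and 2.39 to 4.20 in controls. In the same fit Eif2b3 was called in centrocytes (3.38% of all genes), higher by 0.37 (limma adjusted p = 0.0492), and over all libraries it had the same difference with limma adjusted p = 0.158. With median-of-ratios scaling as well that call was lost (0.34, limma adjusted p = 0.0700). Its values were 19.5, 24.4, 24.9, 18.8 and 23.3 TPM in mutant and 19.0, 14.5, 17.0, 18.3 and 16.002 in control centrocytes.

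In centroblasts the genotypes did not overlap for 1 member, which was lower, and none was higher, against 2.99% and 0.755% of all genes. In centrocytes 1 was higher and 1 lower without overlap, against 2.63% and 1.99%. The first was Eif4e3, an atypical cap-binding relative of eIF4E, with 6.82, 7.53, 8.79, 7.24 and 10.3 TPM in controls and 6.47, 5.46, 5.60, 6.45 and 4.15 in mutants (-0.46 ± 0.14, limma adjusted p = 0.0655; 0.168 without mutant centroblasts 4 and 5). In centrocytes the order was the other way, with 4.62, 5.61, 6.55, 6.004 and 8.49 TPM in controls and 8.45, 7.99, 8.24, 8.10 and 7.72 in mutants (0.35 ± 0.14, limma adjusted p = 0.383). Eif4e3 shares its strand and locus with a second annotated gene, so its reads may not be its own. Eif4g1 was higher in all mutant centrocytes than in any control centrocytes (278 ± 41.2 against 227 ± 8.69 TPM, SD, n = 5; 0.29 ± 0.19, limma adjusted p = 0.80). Eif1 was lower in all of them (333 ± 18.3 against 370.2 ± 5.63 TPM; -0.16 ± 0.07, limma adjusted p = 0.404).

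**Figure D4:**
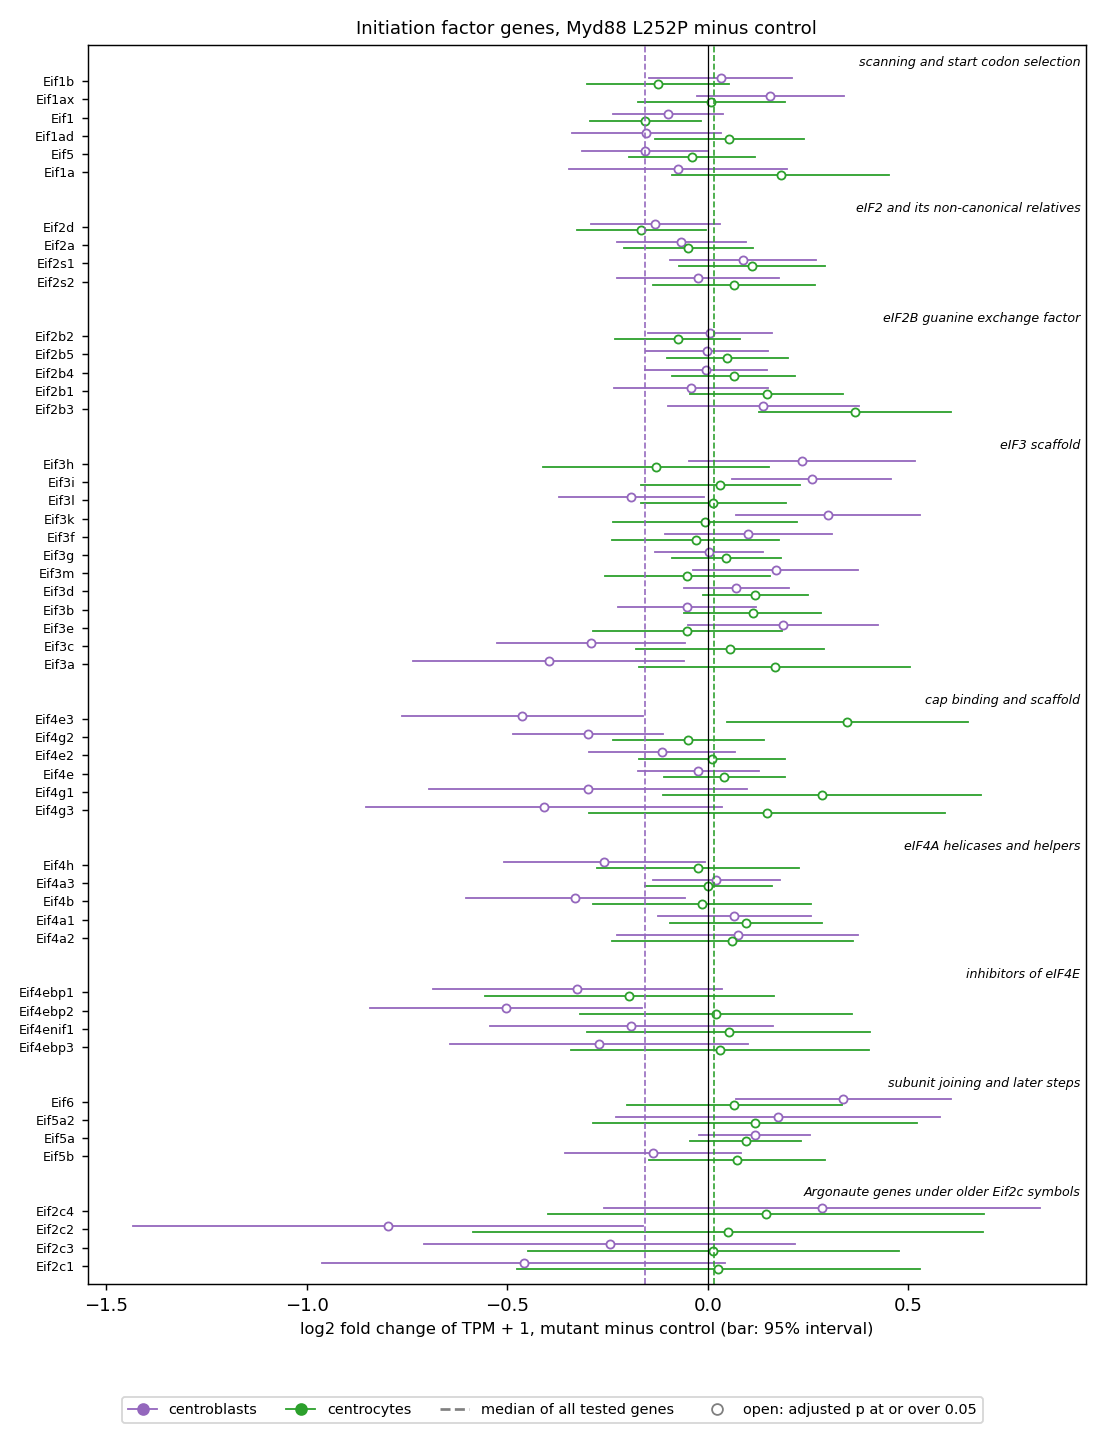
Log2 fold change of TPM + 1 between mutant and control libraries for the 50 tested members, in centroblasts (purple) and centrocytes (green), with 95% intervals as bars and the median of all tested genes as dashed lines. Every point is open because no member passed, and the intervals are within 0.5 of 0 for 31 members in centroblasts and 40 in centrocytes.

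The difference of the genotype effects between centrocytes and centroblasts, which is also the difference of the zone effects between mutants and controls, passed for no member by limma, against 0.0176% of all genes, with 5 members at an unadjusted p under 0.05 beside 11.6% of all genes. None passed without mutant centroblasts 4 and 5 either. The rank correlation with transcript length was 0.60 over members and 0.55 over all genes, and 0.30 and 0.26 without those libraries. Zone calls made in one genotype only, such as Eif4g1, Eif6 and Eif3k in mutants, are therefore not shown to differ between genotypes. Eif4e3 had the smallest adjusted p. Its genotype effects differed by 0.81 ± 0.20 (95% interval 0.39 to 1.23, limma adjusted p = 0.322). For Eif4g3 the difference was 0.56 ± 0.30 and for Eif4ebp2 0.52 ± 0.23 (both limma adjusted p = 0.403), and 0.13 and 0.25 without mutant centroblasts 4 and 5. The 95% interval was within 0.5 log2 units of 0 for 24 members and within 1 for 43.

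Other genes of the pathway were read from the same fit. Of 7 genes for eIF2 kinases and phosphatase subunits, 1 was higher and 1 lower in control centrocytes, and 5 and 1 in mutant centrocytes. Of all genes 21.2% were higher and 9.48% lower in controls, and 48.8% and 12.6% in mutants. The counts of the 7 were, without mutant centroblasts 4 and 5, 3 and 1 in controls and 2 and 2 in mutants. The shares of all genes were then 33.3% and 14.3% in controls and 35.8% and 14.9% in mutants. Ppp1r15a, the stress-induced subunit that brings a phosphatase to eIF2 alpha, was higher in centrocytes in both genotypes (0.52 ± 0.14 and 0.78 ± 0.14, limma adjusted p = 0.00644 and 7.54e-05). It was lower in mutants in both zones. Its mean fell from 46.8 ± 4.25 to 25.6 ± 5.77 TPM in centroblasts and from 67.4 ± 4.99 to 44.2 ± 8.38 in centrocytes (SD, n = 5; -0.87 ± 0.14 and -0.61 ± 0.14, limma adjusted p = 0.00143 and 0.0247). Without mutant centroblasts 4 and 5 the difference in centroblasts was -0.68 (limma adjusted p = 0.00453). Eif2ak3, the kinase PERK of the endoplasmic reticulum, fell by 0.65 in control and 0.42 in mutant centrocytes against centroblasts (0.82 in mutants without mutant centroblasts 4 and 5), and by 0.69 ± 0.18 in mutant against control centroblasts (limma adjusted p = 0.0335). Without those 2 libraries the last difference was -0.30 (limma adjusted p = 0.0777), and mutant centrocytes were lower than control centrocytes by call (-0.47, limma adjusted p = 0.00198). Eif2ak1, the haem-regulated kinase, fell by 0.50 ± 0.13 in mutant centroblasts (limma adjusted p = 0.0374) and by 0.27 without those libraries (limma adjusted p = 0.0296). The erythroid markers given above were higher in the same comparison, and their part was not tested. The median of the 7 in that comparison was -0.43 against -0.16 for all genes, and -0.14 against -0.02 without mutant centroblasts 4 and 5. In that smaller fit Eif2ak4, the amino acid sensing kinase GCN2, was called higher in mutant centroblasts (0.33, limma adjusted p = 0.0325), where over all libraries its difference was -0.05.

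Of 22 cofactors and regulators of initiation, 5 were higher and 1 lower in control centrocytes and 17 and 1 in mutant centrocytes, with medians of 0.17 and 0.56 beside 0.14 and 0.34 for all genes. The shares of all genes were the 21.2% higher and 9.48% lower in controls and 48.8% and 12.6% in mutants given above. The list had, without mutant centroblasts 4 and 5, 9 higher and 2 lower in controls and 13 and 2 in mutants, with a median in mutants of 0.33 beside 0.17 for all genes. Pdcd4, which blocks the eIF4A helicase, had the largest difference, from 17.7 ± 3.15 TPM in control centroblasts to 62.5 ± 16.1 in control centrocytes and from 14.6 ± 3.49 to 67.9 ± 4.504 in mutants (SD, n = 5). It rose by 1.74 ± 0.17 and 2.17 ± 0.17 (limma adjusted p = 1.65e-07 and 2.58e-09). Ddx3x, an RNA helicase of the scanning complex, rose by 0.36 and 0.72 (0.54 in mutants without those libraries), and Abce1, which splits ribosomes for reuse, by 0.41 and 0.60. Paip2, which takes poly(A)-binding protein off the mRNA, was the one that fell, by 0.25 and 0.56. Mknk2, a kinase that phosphorylates eIF4E, fell by 0.42 ± 0.12 in mutant against control centroblasts (limma adjusted p = 0.0421), the one call of this list by genotype, which was lost without mutant centroblasts 4 and 5 (limma adjusted p = 0.178).

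The 2 enzymes that make hypusine on eIF5A, Dhps and Dohh, passed in no comparison, although 1 of them was lower in control centrocytes without mutant centroblasts 4 and 5. Of 9 tested elongation and termination factors none was higher and 1 lower in control centrocytes (Eef2, -0.29 ± 0.07, limma adjusted p = 0.00314), and 3 were higher and 3 lower in mutants (1 and 2 without those libraries). None of 8 mitochondrial translation factors passed in controls, and 3 were higher and 1 lower in mutants. Of 7 genes of mTORC1 and its regulators (Mtor, Rptor, Mlst8, Akt1s1, Rheb, Tsc1 and Tsc2) none passed in controls and 5 were higher in mutants. These were Mtor (0.92 ± 0.20, limma adjusted p = 0.00059), Rptor (0.54 ± 0.16, limma adjusted p = 0.00587), Mlst8, Tsc2 and Akt1s1. Beside the counts of these lists, 21.2% of all genes were higher and 9.48% lower in controls, and 48.8% and 12.6% in mutants. Without mutant centroblasts 4 and 5, 2 of the 7 genes of mTORC1 and its regulators were higher in mutant centrocytes and 1 in control centrocytes. Mtor then stood at 0.53 in mutants, and the call of Rptor was lost (0.31, limma adjusted p = 0.0821). The mitochondrial list then had 1 higher and 0 lower in mutants and 2 and 2 in controls, and the elongation and termination list 1 and 2 in controls. All genes then stood at 33.3% higher and 14.3% lower in controls and 35.8% and 14.9% in mutants. By genotype none of these 4 lists had a call in either zone, against 4.29% of all genes in centroblasts and 1.2% in centrocytes.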

How the data were processed

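RNA was sequenced from 20 sorted B cell libraries. Per the labels' protocols the kit was a stranded mRNA kit. The authors deposited TPM per gene symbol, 1 file a library, and per the submitters' processing notes used STAR and mm10. The sources used here do not give versions, annotation or the counting tool. TPM sums to the same total in each library and keeps no depth, so no counting interval is given.

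Log2(TPM + 1) values were fitted with limma 3.58.1 (R 4.3.3), as 4 group means over 20 libraries with 16 residual degrees of freedom, moderated by eBayes with its trend and robust options. Tests were two-sided. The 11386 genes that reached 1 TPM in 5 or more libraries were tested. Fold changes are on that scale, which understates low genes. P-values were Benjamini-Hochberg adjusted over all tested genes with a threshold of 0.05. The fit was tested on simulated data. Alternatives were a pseudocount of 0.1, no filter, a filter of 5 TPM, median-of-ratios scaling, the compared groups alone, a plain variance model, a replicate block, mutant centroblasts 4 and 5 left out, and each library left out.

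Members and gene lists were chosen with earlier results of these data known. Any member may be named. Values in every library were computed for the member with the smallest adjusted p in each role, the leading calls and largest differences of each comparison, and a set of core factors. Pathway lists were given as counts with up to 5 called genes each. A further gene of the marker lists was left out and is not reported here. Of the members 47 carried a current RefSeq symbol. Positions are GENCODE M21 (GRCm38, the assembly of mm10), and promoters are from RefSeq (GRCm38.p6).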

Additional observations from a re-analysis of the deposited data

Results flagged for a closer look

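In 200 groups of 5 libraries, 1 for each tested member and group, the highest or lowest library stood apart from the other 4 by Dixon's criterion at the 95% level in 8, where chance gives about 1 in 20. In control centroblasts 2 Eif4g2 was high at 654 TPM, Eif2c3 high at 5.72 TPM and Eif2b5 low at 112.5 TPM. In control centrocytes 1 Eif5a2 was high at 36.1 TPM and Eif3d high at 397 TPM. Eif2b3 was low in control centroblasts 5 at 11.4 TPM. Eif1ad was high in control centroblasts 4 at 91.3 TPM and in mutant centrocytes 3 at 91.2 TPM.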

How the results depend on the processing

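The count of members called between the zones in controls was 20. It was 33 without mutant centroblasts 4 and 5 and 31 with median-of-ratios scaling as well, a pairing of choices added after seeing the data, and 11 to 28 with single libraries left out. In mutants it was 31, and 28 to 32 with single libraries left out. The genotype comparison in centroblasts had 0 calls, 1 without mutant centroblasts 4 and 5 (also 1 with both choices), and 0 to 14 with single libraries left out. In centrocytes it had 0, 1 without mutant centroblasts 4 and 5, and 0 with both choices. Median-of-ratios scaling gave 24 and 38 zone calls in controls and mutants. That scaling turned the zone difference in mutants for Eif4e to -0.27, Eif2b1 to -0.26, Eif3b to -0.22, Eif4g2 to -0.27, Eif5a to -0.35, Eif2s1 to -0.33 and Eif1ad to -0.26, none of them called on the TPM scale and each called lower with that scaling. Without mutant centroblasts 4 and 5 as well, the turned values were -0.22 for Eif2b1, -0.27 for Eif4g2, -0.041 for Eif4ebp2, -0.14 for Eif4enif1, -0.23 for Eif4b and -0.24 for Eif1ad. The cause of these changes was not tested beyond the removal of the median of all genes that the scaling makes. The labels do not say what a replicate number shares. Same-numbered centroblast and centrocyte libraries deviated together, with a correlation above 0.1, in 4 of 5 pairs in each genotype (correlations -0.02 to 0.26 in controls and 0.00 to 0.27 in mutants, means 0.16 and 0.17, against -0.04 for other numbers in each), and 4 of 5 control and 2 of 5 mutant centroblast libraries correlated best with their own number. This is a hint of pairing, but since not every pair was above 0.1 the numbers were not taken as pairs. Across genotypes, same-numbered centrocyte libraries had a mean correlation of 0.11, against -0.03 for other numbers, with 3 of 5 above 0.1. Same-numbered centroblast libraries of the 2 genotypes had a mean of -0.01, against 0.0009, with 1 of 5 above 0.1. What a number shares across genotypes was not tested. With the number as a replicate block within genotype there were 24 and 30 zone calls and 0 for the difference (Eif4e3, limma adjusted p = 0.0654). The genotype comparisons used another block, in which a number was shared by all 4 groups, and had 0 calls in either zone. Depth is unknown, so its limit on members under 10 TPM (Eif4e3, Eif2c3, Eif2c4) could not be computed.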
